A study of Homo sapiens with 15 samples.

Results

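ATF4, CHOP (gene symbol DDIT3) and 8 genes that act beside them or limit their response were followed in H1299 cells kept in 5 media. The 10 genes, ATF4, DDIT3, ATF3, ATF5, CEBPB, TRIB3, CHAC1, SESN2, PPP1R15A and DDIT4, were chosen by name as transcription factors and feedback regulators of the integrated stress response. Earlier results of these data were known when they were chosen. Each symbol was matched to its Ensembl gene ID in the deposited count table through GENCODE 29, which gave 10 of 58395 genes. All 10 passed the filter on low counts, and the lowest count of any of them in any library was 68, for ATF3 with both nutrients.

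H1299 is an established human non-small cell lung carcinoma line. Cells were moved from medium with serum into fresh serum-free RPMI 1640 medium for 12 h, so every group, including the one with both nutrients, lacked serum. The groups were neither glucose nor glutamine, 5 mM glucose alone, 4 mM glutamine alone, 5 mM glucose with 4 mM glutamine (both nutrients), and 5 mM glucose with 4 mM ammonium chloride (NH4Cl) and no glutamine. Each group had 3 libraries of poly(A)-selected RNA from a strand-marking kit, 15 in all. No time series, untreated serum control or NH4Cl group without glucose was among these libraries.

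The integrated stress response starts with kinases that phosphorylate the translation initiation factor eIF2: GCN2 senses amino acid shortage, PERK stress in the endoplasmic reticulum (ER), PKR double-stranded RNA, and HRI heme shortage and mitochondrial stress. Phosphorylated eIF2 lowers general translation but favours translation of ATF4, a basic leucine zipper (bZIP) transcription factor that switches on genes of amino acid supply along with DDIT3, ATF3, TRIB3, CHAC1, SESN2 and DDIT4. PPP1R15A (GADD34) brings a phosphatase to eIF2 and so closes the loop, while TRIB3 binds and restrains ATF4 and CHOP. The libraries measure messenger RNA, and eIF2 phosphorylation and ATF4 protein were not analysed here.

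Stretches before the RefSeq start (GRCh38.p14) of 4 of the genes are shown. CHAC1, ATF3 and PPP1R15A hold the motif matches found among the 10 genes. DDIT3 is shown because its levels followed those of CHAC1. It had no exact match in the bases searched, and nor had the genes not shown. Bases more than 250 before a start were not searched. Capitals mark TGATGNAA, the core of the C/EBP-ATF composite element, read on both strands in CHAC1 and ATF3, and TGACGTCA, the cAMP response element, in PPP1R15A. The CHAC1 stretch (chr15:40953251-40953280, plus strand) is 30 bases around the match, which lies inside an exon that GENCODE 29 gives to CHAC1. The others are unbroken stretches that no GENCODE 29 exon covers: chr1:212565157-212565333 (plus) for ATF3, chr19:48872171-48872391 (plus) for PPP1R15A and chr12:57520518-57520709 (minus) for DDIT3.
CHAC1: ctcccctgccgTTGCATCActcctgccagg
ATF3: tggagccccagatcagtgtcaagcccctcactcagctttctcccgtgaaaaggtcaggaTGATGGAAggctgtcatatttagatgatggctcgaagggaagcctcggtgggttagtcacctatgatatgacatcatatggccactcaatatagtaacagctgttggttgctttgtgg
PPP1R15A: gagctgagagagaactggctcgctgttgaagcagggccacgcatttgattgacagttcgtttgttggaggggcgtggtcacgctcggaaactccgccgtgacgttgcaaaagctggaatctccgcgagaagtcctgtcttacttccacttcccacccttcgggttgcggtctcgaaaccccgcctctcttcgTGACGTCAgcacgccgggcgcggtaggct
DDIT3: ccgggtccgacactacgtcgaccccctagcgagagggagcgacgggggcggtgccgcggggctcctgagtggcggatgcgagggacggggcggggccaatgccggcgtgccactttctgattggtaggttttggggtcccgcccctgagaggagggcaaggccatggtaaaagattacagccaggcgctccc
Counted from the RefSeq start, the matches lie at -209 to -202 in CHAC1, where the letters on the gene's own strand are TTGCATCA, at -191 to -184 in ATF3 and at -58 to -51 in PPP1R15A. ATF3 has another promoter entry, at chr1:212614768-212615067, which holds no match. Which ATF3 start these cells used was not tested. All 10 genes had at least 1 promoter entry, 18 in all, each running from 250 bases before to 50 after a start. The composite core was found in 3.62% of all 35116 promoters, and the cAMP response element in 1.85%. Among the 15999 promoters of tested genes, the class the 10 genes belong to, the shares were 2.0% and 2.69%, so the order of the motifs reversed. An exact match to the ER stress element was found in 0.0769% of the promoters and to the heat shock element in 0.49%. None of the 10 genes had an exact match to either. Near matches were not searched. A promoter without an exact match, such as that of DDIT3, may therefore still hold a variant of either element.

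Library totals ranged from 14914127 to 19938691 counts, so the limit that a count of 0 allows (3 counts) lay between 0.150 and 0.201 CPM (counts of a gene scaled to a common library total). The cells' labelled identity was checked by markers: KRT8, KRT18 and VIM had 2703 to 48561 counts per library, KRT19 12 to 26 and the epithelial marker EPCAM at most 16. The 10 markers of fibroblasts, endothelium and leukocytes had at most 31 counts each, and summed to between 1.68 and 4.15 CPM. Low-count genes were detected more often in 3 libraries (neither replicate 2, glucose replicate 1 and both-nutrient replicate 3, with 28337, 35114 and 33716 genes, against 24219 to 26876 in the other 12). Leaving those 3 out changed 1 call among the 10 genes, that of ATF4 between glutamine and neither. The libraries of a medium are labelled as triplicates without naming separate cultures or days, so a p-value here speaks for the spread of these libraries alone, which may be technical. In bulk RNA, fewer cells expressing a gene and less RNA per cell cannot be told apart.

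Together the 10 genes took 0.283% of all counts with neither nutrient, 0.281% with glucose, 0.191% with glutamine, 0.246% with glucose and NH4Cl, and 0.0361% with both nutrients. The similar sums with neither nutrient and with glucose hide changes of single genes. PPP1R15A had 25929 to 29481 counts per library with neither nutrient and 4337 to 4772 with glucose. With glucose 6 of the 10 genes were higher than with neither, and 4, PPP1R15A among them, were lower. Levels below are CPM after TMM scaling of the libraries. With both nutrients 9 of the 10 genes were at their lowest, and ATF5 was lowest with glutamine alone. The medium of the highest level split the genes: it was neither nutrient for ATF3, ATF5, DDIT4 and PPP1R15A, glucose for ATF4, CEBPB, SESN2 and TRIB3, and glutamine for CHAC1 and DDIT3. Of the 40 steps between neighbouring media in these orders, 37 were called and 3 were not. The same 3 were those in which libraries of the neighbouring media overlapped. Depending on the pair of media, 29.6% to 77.8% of all genes were called and 39.9% to 78.6% had groups that did not overlap. The orders come from the same libraries that the steps test. From the lowest to the highest medium the level rose 63.1-fold for ATF3, 62.3-fold for PPP1R15A, 23.0-fold for DDIT3, 22-fold for TRIB3, 21.7-fold for SESN2, 20.9-fold for DDIT4, 14-fold for CHAC1, 7.96-fold for CEBPB, 3.54-fold for ATF4 and 3.22-fold for ATF5. The median span was 1.81-fold over the 14650 tested genes whose mean exceeded 0.5 CPM in every medium.

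**Figure D1:**
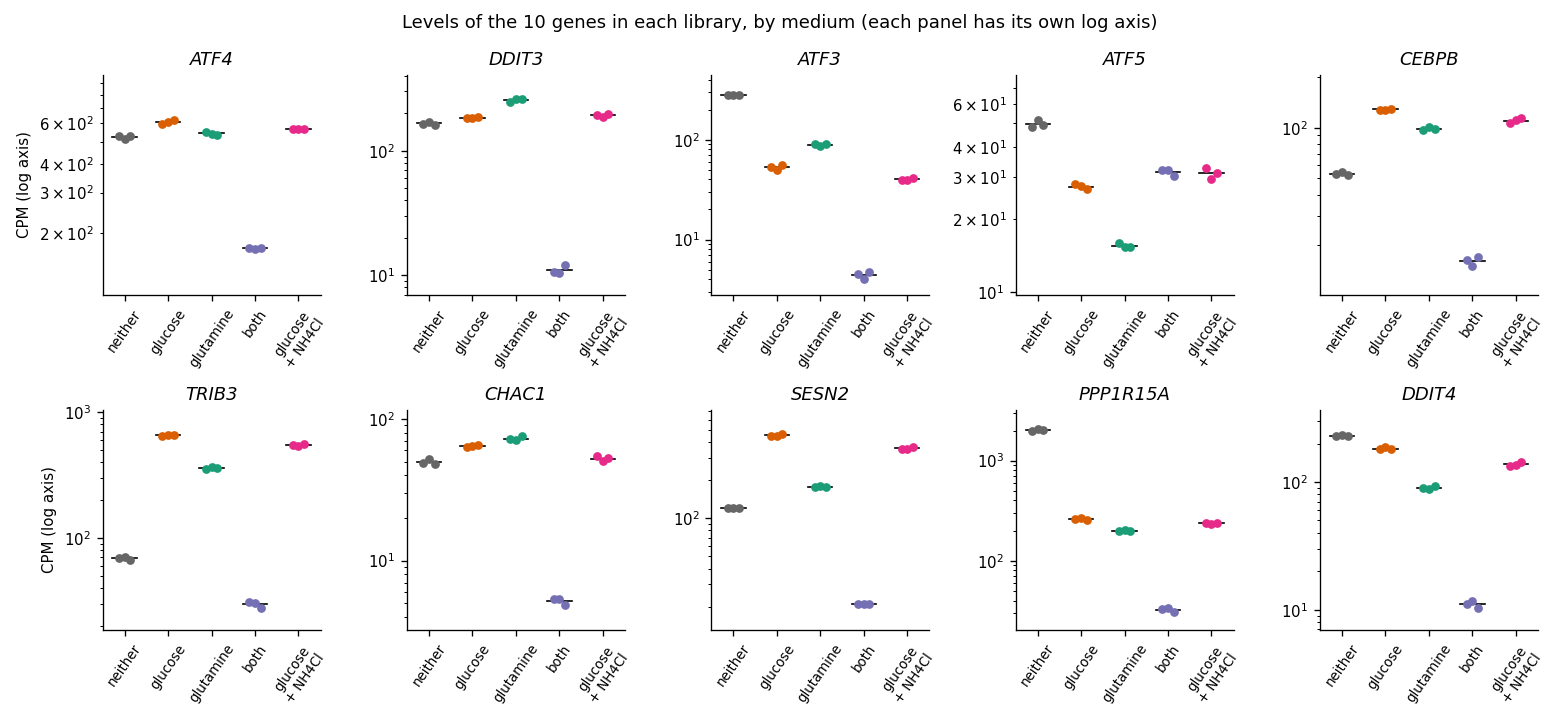
CPM of each gene in each of the 15 libraries (points, log axis, own scale per panel) by medium, with the mean of 3 libraries as a bar. In 9 panels the both-nutrient libraries lie below all others, and in the ATF5 panel the glutamine libraries do.

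ATF4 itself, on chromosome 22 at 39519695 to 39522685, moved less than most of its targets. Its CPM were 528, 514 and 528 with neither nutrient, 599, 610 and 622 with glucose, and 553, 542 and 536 with glutamine. With both nutrients they were 172, 171 and 173, and with glucose and NH4Cl 568, 567 and 570. The both-nutrient libraries stood apart below the other 4 media, which lay between 514 and 622. Glutamine added to glucose lowered ATF4 by 1.82 ± 0.022 on the log2 scale (SE; adjusted p = 8.61e-145). The order of the other 4 media, glucose, glucose with NH4Cl, glutamine and neither, rested on steps of 0.10, 0.06 and 0.06. The last of them, glutamine over neither (0.06 ± 0.021, adjusted p = 0.0114), was no longer called with DESeq2's size factors (0.03, adjusted p = 0.177), or without neither replicate 2 (adjusted p = 0.0967) or glutamine replicate 1 (adjusted p = 0.11). ATF4 has processed copies in the genome, and how reads that match several of them were counted is not known, so its counts are uncertain by an amount that was not tested. Of the 4 copies listed, ATF4P3 had the most counts, 12 to 77 per library, against 2878 to 10930 for ATF4.

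DDIT3 encodes CHOP, a bZIP factor tied to cell death after long stress. Its CPM were 165, 169 and 162 with neither nutrient, 183, 183 and 187 with glucose, and 247, 259 and 260 with glutamine. They were 10.6, 10.5 and 12.2 with both nutrients and 193, 186 and 199 with glucose and NH4Cl. All 3 glutamine libraries were above every other library, and the 3 both-nutrient libraries were far below. DDIT3 fell by 4.52 ± 0.043 when glucose was added to glutamine and by 4.05 ± 0.044 when glutamine was added to glucose (SE on the log2 scale; adjusted p = 6.27e-164 and 1.27e-152). The step from glucose to glucose with NH4Cl was not called (0.07 ± 0.028, adjusted p = 0.0578), and its libraries overlapped. The gene, on the minus strand of chromosome 12 at 57516588 to 57521737, overlaps MARS and MBD6 on the other strand, and MIR616 and AC022506.1 on its own strand, where a strand setting cannot separate the reads. AC022506.1 had 0 counts in every library, and MIR616 had 1 or 2 counts with both nutrients and 4 to 46 in the other media. The mean CPM of the opposite-strand genes in the media neither, glucose, glutamine, both, and glucose with NH4Cl were 317, 520, 436, 214 and 462 for MARS and 59.6, 156, 118, 64.1 and 166 for MBD6. The part of such overlapping reads in the DDIT3 counts was not tested.

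CHAC1, an enzyme that breaks down glutathione, held the same order at its extremes. It had 49.2, 52.5 and 47.8 CPM with neither nutrient, 63.4, 64.8 and 65.0 with glucose, and 71.9, 70.5 and 75.9 with glutamine. With both nutrients it had 5.35, 5.36 and 4.85 CPM, and with glucose and NH4Cl 54.4, 50.4 and 52.7. Glutamine libraries were again the highest and both-nutrient libraries the lowest, 12.4-fold below glucose (log2 -3.63 ± 0.068, adjusted p = 8.9e-112) and 14-fold below glutamine (-3.81 ± 0.066, adjusted p = 5.16e-117). Glucose with NH4Cl and neither nutrient were neighbours that did not pass the test (0.08 ± 0.047, adjusted p = 0.135). The step between glutamine and glucose (0.18 ± 0.04, adjusted p = 4.92e-05) was not called when libraries were scaled by their totals alone (0.08, adjusted p = 0.0545). Over the 15 libraries the log2 CPM of DDIT3 and CHAC1 had a Pearson r of 1.0 to 2 decimals, a description of libraries that share their media.

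ATF3, CEBPB and ATF5 are bZIP factors that pair with ATF4, CHOP or each other, and their patterns differed. ATF3 had 280, 280 and 279 CPM with neither nutrient, 53.8, 50 and 56.3 with glucose, 90.0, 85.9 and 90.8 with glutamine, 39.7, 39.6 and 41.4 with glucose and NH4Cl, and 4.50, 4.05 and 4.74 with both nutrients. The 5 groups of libraries did not overlap, and every step in the order was called. Relative to neither nutrient ATF3 was 5.24-fold lower with glucose (log2 -2.39 ± 0.032, adjusted p = 4.72e-137), 3.15-fold lower with glutamine (-1.66 ± 0.029, adjusted p = 1.04e-115) and 62.8-fold lower with both (-5.97 ± 0.051, adjusted p = 3.42e-172). Glutamine added to glucose lowered it 12.0-fold (-3.58 ± 0.069, adjusted p = 5.39e-110), and glucose added to glutamine 19.9-fold (-4.32 ± 0.062, adjusted p = 3.65e-132).

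CEBPB, a C/EBP family factor, ran the other way between neither nutrient and single nutrients. Its mean was 53.4 ± 1.22 CPM with neither nutrient, 129 ± 1.24 with glucose, 98.6 ± 2.48 with glutamine, 110 ± 3.5 with glucose and NH4Cl, and 16.2 ± 1.04 with both nutrients (SD, n = 3). It rose 2.41-fold with glucose and 1.85-fold with glutamine against neither nutrient (log2 1.27 ± 0.037 and 0.89 ± 0.038, adjusted p = 2.64e-81 and 1.29e-55). It was 7.94-fold lower with both nutrients than with glucose (adjusted p = 2.22e-130). The antisense gene CEBPB-AS1, which overlaps it, had means of 0.511, 5.56, 1.76, 0.862 and 4.18 CPM in the media neither, glucose, glutamine, both, and glucose with NH4Cl.

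ATF5, another ATF4-like factor, was the exception among the 10 genes. Its CPM were 48.4, 51.4 and 49.4 with neither nutrient, 27.9, 27.6 and 26.6 with glucose, and 15.9, 15.3 and 15.3 with glutamine. With both nutrients they were 31.9, 32.0 and 30.3, and with glucose and NH4Cl 32.5, 29.4 and 31.2. The glutamine libraries were the lowest, and the both-nutrient libraries stood above those with glucose alone. Adding glucose to glutamine raised ATF5 2.03-fold (log2 1.02 ± 0.063, adjusted p = 3.03e-36), and adding glutamine to glucose raised it 1.15-fold (0.20 ± 0.056, adjusted p = 0.00096). The rise with glutamine added to glucose was smaller than the 1.2-fold change tested against as an alternative. Both nutrients and glucose with NH4Cl did not pass the test (log2 -0.02 for the NH4Cl medium relative to both, 95% interval -0.13 to 0.09, adjusted p = 0.784), and the sign of that value changed with DESeq2's size factors. ATF5 lies on chromosome 19 at 49928702 to 49933935. It overlaps NUP62, IL4I1 and AC011452.1 on the other strand and MIR4751 on its own. AC011452.1 and MIR4751 did not pass the filter on low counts. NUP62, a nuclear pore gene, had means of 149, 76.3, 69.1, 113 and 76.4 CPM in the media neither, glucose, glutamine, both, and glucose with NH4Cl. NUP62 was thus also highest with neither nutrient and lowest with glutamine, and the part of overlapping reads in the ATF5 counts was not tested.

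Among the feedback regulators, PPP1R15A stood out with neither nutrient. It had 1975, 2048 and 2042 CPM there, against 262, 267 and 256 with glucose, 196, 201 and 198 with glutamine, 240, 233 and 240 with glucose and NH4Cl, and 33.2, 33.5 and 30.7 with both nutrients. All 3 neither-nutrient libraries were above 1900 CPM, and no library of another medium passed 267. The drop was 7.73-fold with glucose (log2 -2.95 ± 0.021, adjusted p = 8.18e-185), 10.2-fold with glutamine (-3.35 ± 0.022, adjusted p = 3.19e-192) and 62.3-fold with both nutrients (-5.96 ± 0.028, adjusted p = 6.23e-220). Per kilobase of merged exons PPP1R15A was the highest of the 10 genes with neither nutrient, at 654 ± 13 CPM per kb against 208 ± 3.12 for ATF4. In the other 4 media ATF4 was the highest per kilobase, with 68.5 to 243 CPM per kb.

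TRIB3, the pseudokinase that restrains ATF4, ordered the other 4 media as PPP1R15A did, but neither nutrient, the highest medium for PPP1R15A, came second from the bottom. Its CPM were 68.9, 70.2 and 67.2 with neither nutrient, 649, 659 and 655 with glucose, and 356, 364 and 359 with glutamine. With glucose and NH4Cl they were 552, 538 and 555, and with both nutrients 31.2, 30.2 and 27.7. Either nutrient alone gave several times the level seen with neither, and both together gave less than neither. TRIB3 was 9.52-fold higher with glucose than with neither nutrient (log2 3.25 ± 0.028, adjusted p = 1.21e-172) and 5.23-fold higher with glutamine (2.39 ± 0.028, adjusted p = 2.39e-146). Glutamine added to glucose lowered it 22.1-fold (-4.46 ± 0.03, adjusted p = 6.03e-190).

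SESN2 and DDIT4 (REDD1) both restrain the growth kinase complex mTORC1, SESN2 as a leucine-sensing partner of GATOR2 and DDIT4 through the TSC complex. SESN2 had 121 CPM in each of the 3 neither-nutrient libraries, 447, 449 and 461 with glucose, 175, 179 and 177 with glutamine, 351, 356 and 363 with glucose and NH4Cl, and 21.1, 20.8 and 20.8 with both nutrients. DDIT4 had 230, 234 and 229 CPM with neither nutrient, 180, 187 and 181 with glucose, 90.4, 88.9 and 92.5 with glutamine, 134, 137 and 144 with glucose and NH4Cl, and 11.1, 11.7 and 10.4 with both nutrients. For each gene the 5 groups of libraries did not overlap, and the both-nutrient libraries were the lowest, but glucose lay at the top of the SESN2 order and neither nutrient at the top of the DDIT4 order. Glucose raised SESN2 3.75-fold over neither nutrient (log2 1.91 ± 0.027, adjusted p = 1.5e-133) and lowered DDIT4 1.27-fold (-0.34 ± 0.028, adjusted p = 6.87e-25). The DDIT4 difference changed sign when libraries were scaled by their totals alone (0.09, adjusted p = 0.00128), so its top position depends on the scaling. DDIT4-AS1, which overlaps DDIT4 on the other strand, did not pass the filter on low counts.

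In the comparison of both nutrients with glucose, glutamine was added to cells that already had glucose. With both nutrients 9 of the 10 genes were lower and ATF5 was 1.15-fold higher. The falls were 22.1-fold for TRIB3, 21.7-fold for SESN2, 16.5-fold for DDIT3 and for DDIT4, 12.4-fold for CHAC1, 12.0-fold for ATF3, 8.06-fold for PPP1R15A, 7.94-fold for CEBPB and 3.54-fold for ATF4. In this comparison 67.9% of the 16889 genes tested were called, 34.2% higher and 33.7% lower, and the 3 libraries of each medium did not overlap for any of the 10 genes, against 69.9% of all genes. The median log2 change of the 10 genes was -3.61, beside 0.005 over all genes tested. The 9 that fell did so by more than 2-fold, and 12.2% of all genes were called and changed at least 2-fold in either direction.

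Glucose added to cells that already had glutamine gave the same directions, 9 lower and ATF5 higher, where 65.6% of genes were called, 32.6% higher and 33% lower (6762 and 4370 genes with library totals alone). This comparison uses the same both-nutrient libraries as the last one, so the pair is not independent. The falls were 22.9-fold for DDIT3, 19.9-fold for ATF3, 14-fold for CHAC1, 12.1-fold for TRIB3, 8.49-fold for SESN2, 8.18-fold for DDIT4, 6.13-fold for PPP1R15A, 6.09-fold for CEBPB and 3.16-fold for ATF4. The median of the 10 was -3.06, beside -0.005 over all genes tested, and the libraries of the compared media did not overlap for any of the 10, as for 68.2% of all genes. All 10 genes were also lower with both nutrients than with neither, where 72.3% of genes were called, 37% higher and 35.3% lower (10858 and 2413 genes with library totals alone, under which the 10 genes stayed lower). Their libraries did not overlap, as for 73.1% of all genes. The median of the 10 genes was -2.90 there, beside 0.05 over all genes, with values from -5.97 for ATF3 to -0.66 for ATF5.

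Single nutrients against neither divided the 10 genes. Glucose raised 6 (TRIB3, SESN2, CEBPB, CHAC1, ATF4 and DDIT3) and lowered 4 (PPP1R15A, ATF3, ATF5 and DDIT4), where 77.8% of genes were called, 39.9% higher and 37.9% lower (10138 and 3539 genes with library totals alone). The groups of libraries did not overlap for any of the 10, as for 78.6% of all genes. The rises of CHAC1, ATF4 and DDIT3 were small, at 1.29-fold, 1.17-fold and 1.11-fold (adjusted p = 1.1e-13, 7.07e-21 and 1.21e-06). Glutamine raised and lowered the same genes, with 72.8% of genes called, 37% higher and 35.8% lower (9531 and 3314 with library totals alone), and groups not overlapping for the 10 or for 74.1% of all genes. The changes were TRIB3 5.23-fold, CEBPB 1.85-fold, DDIT3 1.54-fold, SESN2 1.47-fold, CHAC1 1.46-fold and ATF4 1.04-fold up, and PPP1R15A 10.2-fold, ATF5 3.22-fold, ATF3 3.15-fold and DDIT4 2.55-fold down. The neither-nutrient libraries enter both comparisons. When libraries were scaled by totals alone, the all-gene median log2 change against neither nutrient was 0.34 to 0.44 larger, depending on the medium, and among the 10 genes the DDIT4 change with glucose reversed.

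**Figure D2:**
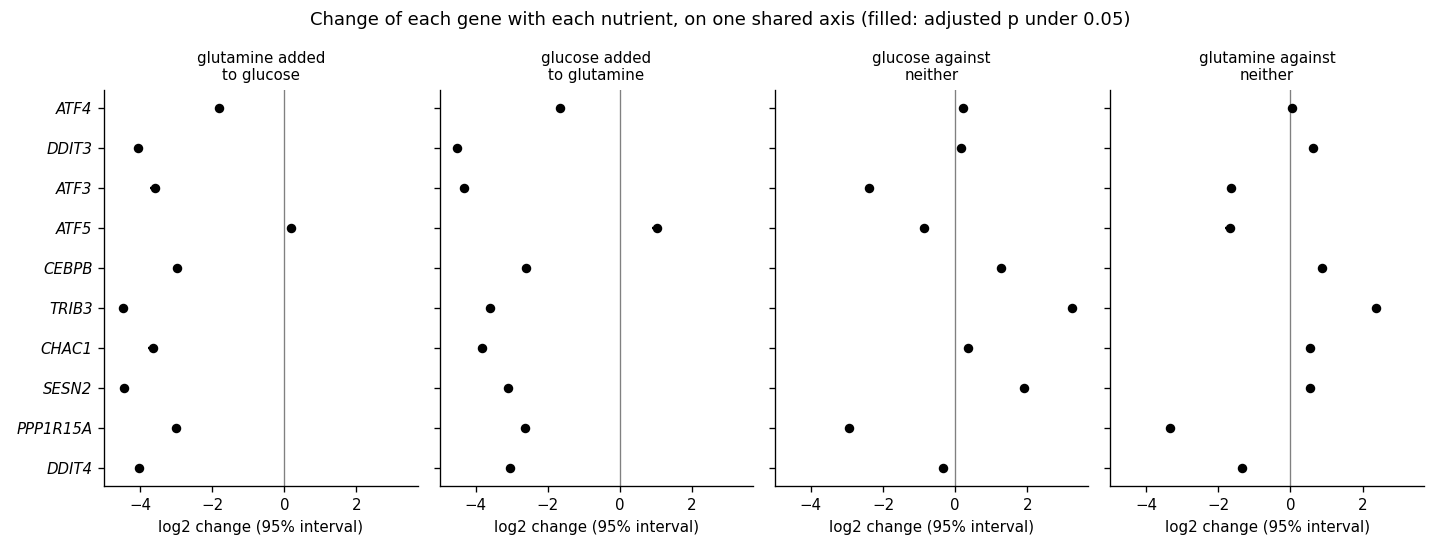
log2 change of each gene (points) with its 95% interval (bars) in 4 comparisons, on a shared axis; filled points passed the test. Beyond ATF5 the left panels lie below 0, and the right panels split between rises led by TRIB3 and falls led by PPP1R15A.

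Glutamine alone was compared with glucose alone as well. DDIT3, ATF3 and CHAC1 were higher with glutamine, by 1.39-fold, 1.66-fold and 1.13-fold, and the other 7 were lower, where 66.5% of genes were called, 33.5% higher and 33% lower, and 68.9% had groups that did not overlap, as all 10 had. The falls were 2.55-fold for SESN2, 2.01-fold for DDIT4, 1.82-fold for TRIB3, 1.77-fold for ATF5, 1.32-fold for PPP1R15A, 1.30-fold for CEBPB and 1.12-fold for ATF4.

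Whether glutamine acted alike with and without glucose was asked by the interaction of the nutrients, the effect of glutamine in glucose minus its effect without glucose. All 10 genes passed, 8 with negative values and ATF5 and PPP1R15A with positive ones, where 74.8% of genes were called, 36.8% higher and 38% lower (4328 and 8492 genes with library totals alone). TRIB3 had the most negative value, -6.85 ± 0.041 (adjusted p = 8.87e-199): glutamine raised it without glucose and lowered it with glucose. PPP1R15A had the value nearest to 0, 0.34 ± 0.039 (adjusted p = 9.73e-15), since glutamine lowered it by 3.35 without glucose and by 3.01 with glucose on the log2 scale. With libraries scaled by totals alone this value was -0.001 (adjusted p = 0.975).

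Ammonium chloride was given with glucose at the concentration that glutamine had elsewhere. The 10 genes differed from their glucose levels by at most 1.33-fold. Their median log2 change was -0.24, beside -0.013 over all genes tested. Against glucose alone 8 genes were lower, ATF5 was higher and DDIT3 was not called, where 29.6% of genes were called, 12.7% higher and 16.9% lower. DDIT3 was also the gene whose libraries overlapped, and 39.9% of all genes had groups that did not. The falls were 1.33-fold for ATF3, 1.32-fold for DDIT4, 1.27-fold for SESN2, 1.23-fold for CHAC1, 1.19-fold for TRIB3, 1.17-fold for CEBPB, 1.10-fold for PPP1R15A and 1.07-fold for ATF4. The rise of ATF5 (1.13-fold, adjusted p = 0.00868) was no longer called without NH4Cl replicate 1 (log2 0.15, adjusted p = 0.0824). Tested against a change of 1.2-fold rather than 0, only ATF3, DDIT4 and SESN2 of the 10 passed, where 2.63% of all genes did.

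Against both nutrients, glucose with NH4Cl kept 9 of the 10 genes higher, where 64.6% of genes were called, 31.2% higher and 33.4% lower. ATF5 was the gene whose libraries overlapped, and 67.5% of all genes had groups that did not. The differences were 18.5-fold for TRIB3, 17.3-fold for DDIT3, 17.1-fold for SESN2, 12.5-fold for DDIT4, 10.1-fold for CHAC1, 9.04-fold for ATF3, 7.33-fold for PPP1R15A, 6.81-fold for CEBPB and 3.30-fold for ATF4. Against glutamine alone 7 genes were higher and 3 (DDIT3, ATF3 and CHAC1) lower, with 64.4% of genes called, 31.6% higher and 32.8% lower (6774 and 4263 genes with library totals alone), and 67.2% with groups that did not overlap. Against neither nutrient 5 genes were higher, 4 lower and CHAC1 not called, with 77.5% of genes called, 39.6% higher and 37.9% lower (10270 and 3327 genes with library totals alone), and 78% with groups that did not overlap. CHAC1 was called there with library totals alone (0.52, adjusted p = 1.1e-20).

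**Figure D3:**
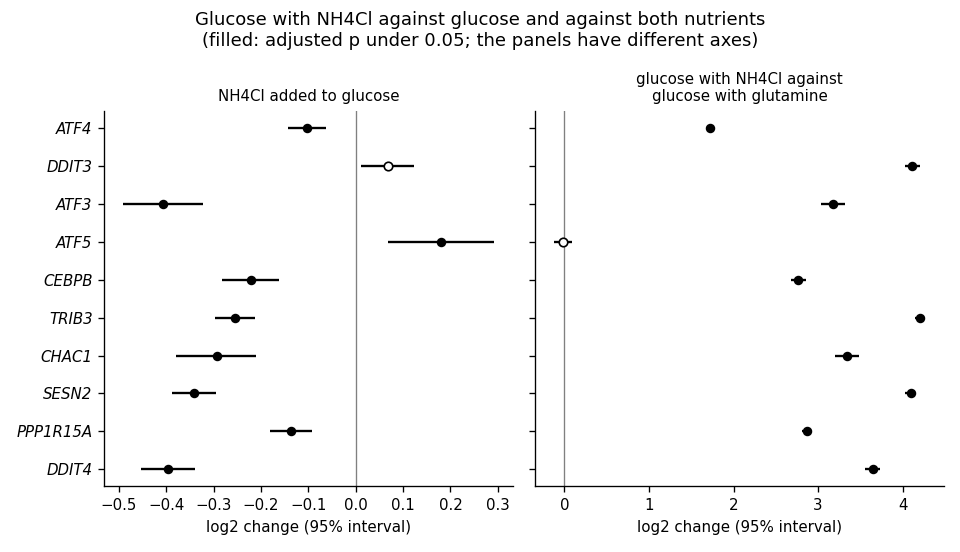
log2 change of each gene (points) with its 95% interval (bars) for glucose with NH4Cl, against glucose alone (left) and against both nutrients (right), with different axes; open points did not pass the test. Left values lie between -0.41 and 0.18, while 9 of the right values lie between 1.72 and 4.21.

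A ratio within a library does not depend on how libraries are scaled, so each gene's count was also set against the ATF4 count of the same library. The log2 ratio of PPP1R15A to ATF4 was 1.90 to 1.99 in the 3 neither-nutrient libraries and between -1.49 and -1.19 with a single nutrient or glucose with NH4Cl. With both nutrients it was -2.50 to -2.35. PPP1R15A thus had more counts than ATF4 with neither nutrient and fewer in every other library. TRIB3 went from -2.97 to -2.87 with neither nutrient up to 0.08 to 0.12 with glucose, and back to -2.64 to -2.47 with both nutrients. DDIT3 kept a ratio between -1.74 and -1.05 in the 12 libraries that lacked 1 or both nutrients and was between -4.02 and -3.82 with both. ATF5 was the only gene whose ratio was highest with both nutrients, -2.51 to -2.42, in the medium where ATF4 was at its lowest. The ratios of the other 8 genes with both nutrients were below those with glucose in all 3 libraries. Groups of 3 libraries cannot give an exact permutation p below 0.10, so no test is attached to the ratios.

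**Figure D4:**
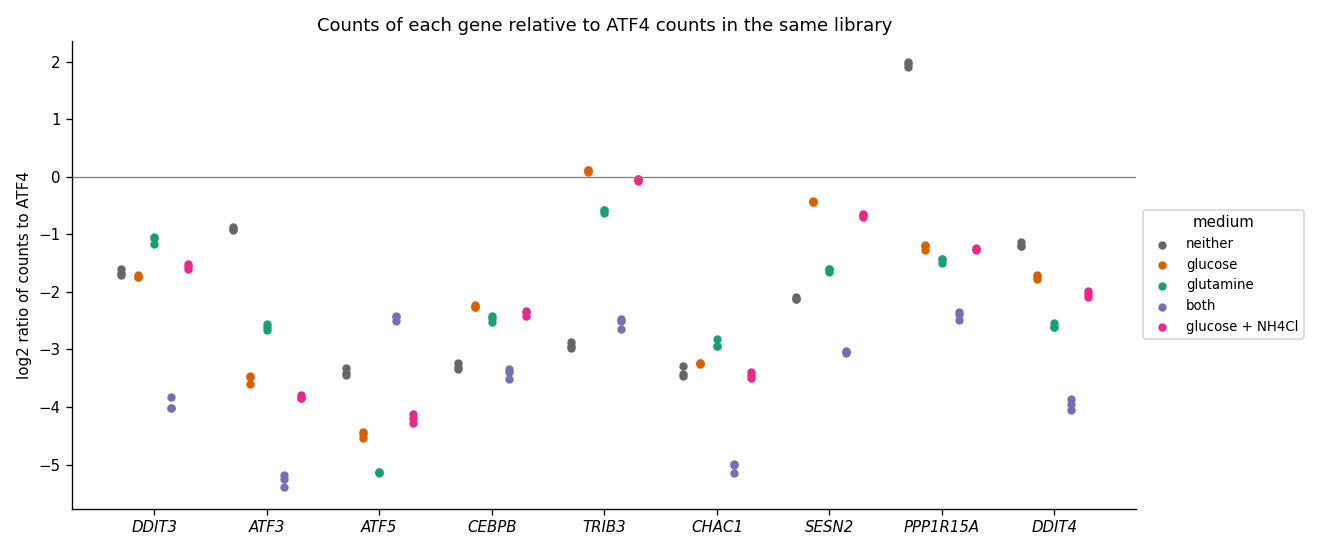
log2 ratio of each gene's count to the ATF4 count in the same library (points, 3 per medium), by gene and medium. PPP1R15A lies above 0 with neither nutrient, TRIB3 lies near 0 with glucose, and ATF5 has its highest ratio with both nutrients.

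How alike the 10 genes were over the 15 libraries is given by Pearson's r of log2 CPM, as a description with no p. ATF4, DDIT3 and CHAC1 had r of 0.99 or more with one another, CEBPB had 0.98 with SESN2 and 0.95 with TRIB3, and ATF3 had 0.95 with PPP1R15A. TRIB3 and PPP1R15A had r of 0.19, and ATF5 ranged from -0.48 with TRIB3 to 0.45 with PPP1R15A. Likeness was read among 3714 other genes that reach a mean of 5 CPM and a wide range over the media. Only the 3 genes of highest r are given for each, so high values follow in part from that choice. A high r does not mean changes of like size. ATF3 means ran from 4.43 to 280 CPM over the media, and those of PFDN2, the closest to it, from 58.9 to 148. The closest to ATF4 were TARS (0.995), EIF1 (0.994) and SNHG7 (0.986). The closest to DDIT3 were BFAR (0.992), EIF1 and TARS (both 0.984), and to CHAC1 TARS, MTHFD1L (both 0.992) and BFAR (0.991). CEBPB had YARS (0.998), ZNF496 (0.997) and HSPA13 (0.993), TRIB3 had PHGDH, CIRBP (both 0.995) and HEIH (0.994), and SESN2 had STC2 (0.998), SNHG1 (0.995) and UPP1 (0.994). PPP1R15A had KLF11 (0.99), MAFF (0.986) and PIM1 (0.984), ATF3 had PFDN2 (0.994), RPF2 (0.992) and ZNF622 (0.982), DDIT4 had RABGGTB (0.998), CSRP1 (0.988) and RP9 (0.982), and ATF5 had HNRNPM, AP1M2 (both 0.99) and MED21 (0.976).

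The other genes of the pathway were read from lists, which were also chosen with earlier results of these data known. The list of known ATF4 targets holds genes of amino acid supply and metabolism along with others such as GDF15, STC2 and VEGFA. Of its 31 tested genes, 30 were lower with both nutrients than with glucose and ALDH18A1 was higher. Their median log2 change was -1.75, and of all genes 33.7% were lower and 34.2% higher. Falls were led by GDF15 (33.2-fold), SLC7A11 (16.8-fold) and SLC6A9 (13.7-fold). Against neither nutrient glucose raised 28 and lowered 3 of the 31 (30 and 1 with scaling by library totals alone), with a median of 1.07. Of all genes 39.9% were higher and 37.9% lower there. SLC7A11, the cystine transporter, rose 18.6-fold (log2 4.21 ± 0.043, adjusted p = 1.42e-157).

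Genes upstream of ATF4 changed in both directions. Of 21 tested genes for eIF2 kinases, eIF2, eIF2B and phosphatase subunits, 9 were higher and 9 lower with both nutrients than with glucose. Their changes lay between -0.92 and 0.51. All genes tested were split about as evenly, with 34.2% higher and 33.7% lower. EIF2AK3, which encodes PERK, was not called there (-0.10 ± 0.093, adjusted p = 0.32) and EIF2AK4, which encodes GCN2, was 0.19 ± 0.029 higher (adjusted p = 7.74e-10). Glutamine alone against neither nutrient had EIF2AK3 up by 0.91 ± 0.097 (adjusted p = 1e-16). In comparisons with neither nutrient the directions of this list depended on scaling: glucose raised 4 and lowered 13, or 13 and 5 with library totals alone. Of all genes 39.9% were higher and 37.9% lower with glucose (10138 and 3539 genes with library totals alone).

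Genes of the ER unfolded protein response, which PERK shares, and of the cytosolic heat shock response were set beside the 10 genes. All 20 tested ER genes were higher with glutamine alone than with neither nutrient (median 1.47, and all 20 with library totals alone). All 20 were lower when glucose was added to glutamine. Of all genes, 37% were higher in the first comparison and 33% lower in the second. HSPA5, the ER chaperone BiP, rose 5.97-fold in the first comparison and fell 11.2-fold in the second. When glutamine was added to glucose 7 ER genes rose and 10 fell, where 34.2% of all genes were higher and 33.7% lower. The 14 cytosolic heat shock genes were all lower with glucose than with neither nutrient (median -3.55, and all 14 with library totals alone). Of all genes 37.9% were lower there, among them PPP1R15A, ATF3, ATF5 and DDIT4 (DDIT4 not with library totals alone). HSPA1A had the largest of the heat shock falls, 379-fold, and shares near-identical sequence with HSPA1B, so their separate values are uncertain. When glutamine was added to glucose, 13 of the 14 heat shock genes were higher and 0 lower (median 1.25). PPP1R15A and ATF3 fell in that comparison.

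**Figure D5:**
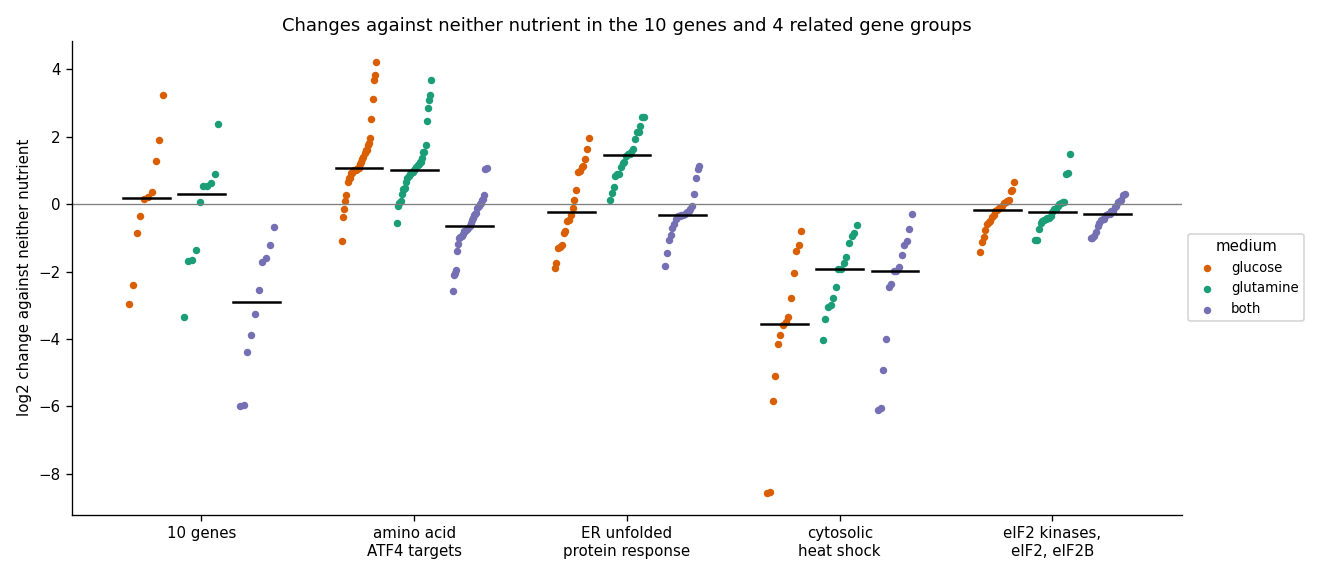
log2 change against neither nutrient for each tested gene (points) of the 10 genes and of 4 lists, with glucose, glutamine or both nutrients; black bars are medians. ATF4 targets lie mostly above 0 with a single nutrient and the heat shock genes lie below 0 in all 3 media (with library totals alone 1 of 14 is higher with both nutrients), while the 10 genes spread on either side with a single nutrient and lie below 0 with both.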

How the data were processed

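The authors deposited raw read counts per gene (whole-number counts), made with HISAT2 2.1.0 and featureCounts of Subread 1.5.1 on GRCh38.p12, per the submitters' processing notes; their settings, the counting strand and the handling of reads with several matches were among steps not given in the sources used here. Of the 58395 gene IDs, 58275 matched GENCODE 29 and 120 did not. One model of 15 libraries with a mean per medium was fitted with edgeR 4.0.16 in R 4.3.3 (quasi-likelihood F test, TMM scaling, filterByExpr), and two-sided p-values were adjusted over all 16889 tested genes by Benjamini-Hochberg and called under 0.05. DESeq2 1.42.0, other scalings, filters, a 1.2-fold threshold, the compared media alone, a replicate block and each library left out were tried as alternatives, and leaving out the 3 libraries rich in low-count genes was added after seeing the data. Precision was set by the 3 libraries per medium and by counting, and 0 columns were left out. Intervals cover 95%.

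The 10 genes and the gene lists were chosen with earlier results of these data known. Named were all 10 genes in every comparison, up to 3 genes of each list with the largest called rise and fall, and for likeness the 3 genes of highest r. EIF2AK3, EIF2AK4 and single genes of the lists outside this rule were chosen after their values were seen. Replicate numbers were checked for pairing. The 30 pairs of libraries with the same number in different media had deviations from their group means with a median correlation of -0.003 (-0.075 to 0.068). No pairing by number was thus seen, but whether a number marks a shared culture or day cannot be told from these values. No 2 libraries held identical values, and chi-square per degree of freedom between replicates ran from 1.22 to 2.36. Promoter sequences are from RefSeq (GRCh38.p14). Log2 CPM used a prior count of 2, and ratios to ATF4 an offset of 0.5 counts.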

Additional observations from a re-analysis of the deposited data

Results flagged for a closer look

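For all 10 genes the effect of glutamine differed between cells with and without glucose in the direct test of that difference (edgeR, adjusted over all genes), as it did for 74.8% of genes tested. The difference on the log2 scale, effect with glucose minus effect without, was -6.85 for TRIB3, -4.99 for SESN2, -4.67 for DDIT3, -4.18 for CHAC1, -3.88 for CEBPB, -2.69 for DDIT4, -1.93 for ATF3 and -1.88 for ATF4. For ATF5 it was 1.88 and for PPP1R15A 0.34, and the last value was -0.001 when libraries were scaled by their totals alone.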

How the results depend on the processing

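Of the log2 changes of the 10 genes recomputed under the alternatives, 2591 kept direction and call, 27 lost the call, 7 gained it and 5 changed sign. The sign changes were DDIT4 in glucose against neither with scaling by library totals alone (0.093), the PPP1R15A interaction with the same scaling (-0.001), and ATF5 in glucose with NH4Cl against both nutrients with DESeq2's size factors (0.003), DESeq2's Wald test (0.003) and without NH4Cl replicate 2 (0.022, the highest of the values with a library left out, which went down to -0.054). Of the 27 lost calls 17 came from testing against a 1.2-fold change, a stricter null. Under that test the genes called were 7417 for both nutrients against glucose, 6485 for both against glutamine, 6691 for glutamine against glucose, 6416 for glucose with NH4Cl against both nutrients, 6016 against glutamine and 444 against glucose, where 3 of the 10 genes remained. DDIT3 in NH4Cl against glucose passed with DESeq2's size factors (adjusted p = 0.0296), library totals alone (0.0211), DESeq2's Wald test (0.0449) or the compared media alone (0.014), and without both-nutrient replicate 3 (0.0498) or NH4Cl replicate 2 (0.0191). CHAC1 in NH4Cl against neither passed with library totals alone (log2 0.52). The cause of these changes was not tested.

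With each library left out in turn the count of the 10 genes called ran from 9 to 10 for glutamine against neither and from 8 to 10 for NH4Cl against glucose, and did not vary in the other 9 comparisons. Over all genes the counts called ran from 11802 to 12391 for glutamine against neither and from 4219 to 5026 for NH4Cl against glucose. With library totals alone the genes higher and lower were 10138 and 3539 for glucose against neither (6738 and 6401 with TMM), 9531 and 3314 for glutamine (6254 and 6048), 10858 and 2413 for both nutrients (6245 and 5962), 10270 and 3327 for glucose with NH4Cl (6686 and 6404), 6762 and 4370 for both against glutamine (5502 and 5571), 6774 and 4263 for NH4Cl against glutamine (5340 and 5540), and 4328 and 8492 for the interaction (6213 and 6422). The replicate block, which rests on shared numbers only, changed no call of the 10 genes and gave 4953 genes called for NH4Cl against glucose, against 4998 without it. The libraries closest to those sharing their number were 4 of 15. Depth limits little here, since the smallest count of the 10 genes was 68.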

Other observations

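Of 9 tested relatives of the 10 genes, 4 were lower, 2 higher and 3 not called when glutamine was added to glucose, where 67.9% of all genes were called. TRIB2, at 5 to 24 counts per library, was 2.79-fold higher and CHAC2 1.2-fold higher. CEBPG, a C/EBP factor, fell 3.84-fold when glutamine was added to glucose and 3.51-fold when glucose was added to glutamine. TRIB1, a relative of TRIB3, fell 1.71-fold and 2.23-fold, while SESN3, a relative of SESN2, was not called in the first of these comparisons (log2 0.005, adjusted p = 0.968) and rose 2.03-fold in the second. PPP1R15B, the other eIF2 phosphatase partner, fell 1.67-fold with glutamine added to glucose. DDIT4L did not pass the filter on low counts.

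Of 9 genes tied to CHOP, death and oxidation, 5 were lower and 1 higher with both nutrients than with glucose, a share called that is near the 67.9% of all genes. GADD45A fell 4.87-fold, the death receptor gene TNFRSF10B 3.97-fold and BBC3 2.38-fold. Of 18 tested mTORC1 genes 7 were higher and 7 lower, none by more than 0.79 on the log2 scale. Of 27 tested other bZIP factors 23 were lower and 3 higher, led by NFIL3 (4.40-fold), MAFF (4.13-fold) and CEBPG. Of 16 immediate early genes 13 were lower and 2 higher. Beside the counts of the mTORC1, bZIP and immediate early lists, 34.2% of all genes were higher and 33.7% lower with both nutrients than with glucose. With glucose against neither nutrient 11 of the 16 immediate early genes were lower and 2 higher (8 and 6 with scaling by library totals alone), led by FOSB, which fell 86.8-fold. Of all genes 37.9% were lower and 39.9% higher there.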
